A study of Mus musculus with 77 samples.

Results

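Bipolar cells carry the signal of photoreceptors to the ganglion cells, and their gene set was followed here in retinas of mice with oxygen-induced retinopathy (OIR) and of control mice. The set held 8 genes: *Pcp2*, *Prkca*, *Gng13*, *Trpm1*, *Vsx1*, *Cabp5*, *Isl1* and *Otx2*. Every probe whose transcript carried one of these symbols was taken, which gave 12 of the 55681 probes tested and 8 of the 21154 genes with a symbol. *Trpm1* had 3 probes, *Prkca* and *Cabp5* had 2 each, and the other genes had 1. A gene stood by its probe with the brightest mean signal in the retina channel.

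The mice were C57BL/6, and each of the 77 arrays held total RNA of both retinas of 1 mouse against Universal Mouse Reference RNA. The OIR group spent 5 days from P7 in 75% oxygen (hyperoxia), until P12, and the control group stayed in 21% oxygen (normoxia). Retinas were taken on P12 from 13 OIR and 12 control mice, on P17 from 13 OIR and 12 control mice, and on P28 from 13 OIR and 14 control mice. Whole litters were randomised to oxygen or room air and the litter of a mouse was not given in the labels, so p-values measure the spread between these mice. The RNA came from whole retina, in which fewer cells of a type and less RNA per cell cannot be told apart.

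In the mouse retina, rods drive rod bipolar cells, and cones drive several types of ON and OFF cone bipolar cells. In darkness, glutamate from the photoreceptor holds the mGluR6 receptor of ON bipolar cells active, and its G protein Go keeps the cation channel TRPM1 shut. Light lowers glutamate, the channel opens and the cell depolarises. *Gng13* encodes the gamma subunit of this Go, *Pcp2* a Go-binding regulator found in rod and ON cone bipolar cells, and *Prkca* protein kinase C alpha, the usual marker of rod bipolar cells. *Cabp5* encodes a calcium-binding protein of rod and some cone bipolar cells. *Otx2* and *Isl1* encode homeodomain transcription factors needed for bipolar cells, although photoreceptors also use *Otx2*, and ganglion and amacrine cells also use *Isl1*. *Vsx1* encodes a homeodomain factor of a subset of cone bipolar cells. Bipolar cells are born late and mature in the weeks after birth, over the days sampled here.

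Promoters are shown for 4 members because *Gng13* and *Vsx1* carried the P17 differences described below and because *Trpm1* and *Cabp5* held the sequence TAATCC. The letters TAATCC are those read by Otx-type homeodomains, and TAATTA is a general homeodomain core. Each line gives the 250 bases before a transcription start in RefSeq (GRCm38.p6), 5′ to 3′ on the strand of the gene, and capitals mark TAATCC or, where it lies on the other strand, GGATTA. The windows lie at chr17:25716922-25717171 (plus strand, the first of 2 *Gng13* starts), chr2:150689138-150689387 (minus strand, *Vsx1*), chr7:64153585-64153834 (plus strand, the first of 2 *Trpm1* starts) and chr7:13397905-13398154 (plus strand, *Cabp5*).
Gng13: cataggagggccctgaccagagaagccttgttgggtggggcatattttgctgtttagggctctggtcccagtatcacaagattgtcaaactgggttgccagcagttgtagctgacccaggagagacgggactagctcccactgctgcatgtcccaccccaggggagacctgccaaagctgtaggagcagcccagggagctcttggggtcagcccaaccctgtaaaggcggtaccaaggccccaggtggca
Vsx1: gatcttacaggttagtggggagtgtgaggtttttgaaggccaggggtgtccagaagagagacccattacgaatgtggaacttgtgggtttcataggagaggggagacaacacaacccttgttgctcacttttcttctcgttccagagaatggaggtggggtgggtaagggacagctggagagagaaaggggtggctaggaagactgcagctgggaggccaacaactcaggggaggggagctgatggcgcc
Trpm1: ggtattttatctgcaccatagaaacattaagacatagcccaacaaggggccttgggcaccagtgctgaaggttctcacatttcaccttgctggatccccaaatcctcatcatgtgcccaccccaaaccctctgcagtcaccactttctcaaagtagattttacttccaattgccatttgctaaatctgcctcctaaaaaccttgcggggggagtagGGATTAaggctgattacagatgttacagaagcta
Cabp5: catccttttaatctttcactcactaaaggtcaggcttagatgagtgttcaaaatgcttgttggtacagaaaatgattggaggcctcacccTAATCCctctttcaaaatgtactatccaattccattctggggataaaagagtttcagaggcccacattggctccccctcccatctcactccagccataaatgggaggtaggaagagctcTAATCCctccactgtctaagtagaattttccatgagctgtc

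All 8 genes were found in RefSeq, with 16 start windows. TAATCC stood in a window of 4 of the 8 genes, namely 34 bases before the first *Trpm1* start, 160 and 41 bases before the *Cabp5* start, and in windows of *Isl1* and *Otx2*. TAATTA, which reads the same on both strands, stood in windows of *Pcp2* and *Otx2*. *Gng13*, *Vsx1* and *Prkca* held neither run of letters in these windows. Counted by window, 4 of the 16 held TAATCC and 3 of the 16 held TAATTA. Over 32817 windows of all genes, 6.25% held TAATCC and 4.85% held TAATTA on either strand, and a gene with several starts had more windows in which to hold one.

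All differences below are log2 retina over reference (the ratio) or log2 of the retina channel alone after quantile normalisation, with the retina taken to be in Cy3. The labels put the retina in Cy5, so the sign of every ratio here opposes the labels. The rod genes *Sag*, *Gnat1* and *Pde6b* were each brighter in Cy3 on 77 of 77 arrays, by a log2 of at least 4.18. All 8 members were brighter in Cy3 on 76 of 77 arrays, and the lowest log2 of Cy3 over Cy5 of any member on any array was -0.11. In that channel all 8 members passed the scanner's test against background on all 77 arrays and none was saturated, and the defining markers of the labelled tissue were thus present. In the reference channel *Trpm1*, *Vsx1*, *Isl1* and *Otx2* were dim. On P17, for example, *Vsx1* was well above background there on 5 of 12 control and 4 of 13 OIR arrays, so the ratio of such a gene rested on a weak denominator and the retina channel is given beside it. *Gng13* was also low there on P17, at means of 6.18 in control and 6.08 in OIR mice, against 6.01 and 5.98 for *Otx2*. It was well above background on 10 of 12 control and 11 of 13 OIR arrays.

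The arrays lay on 11 slides scanned on 4 days. An array had 13765 to 34306 probes clear of background in Cy3, and the 3 slides with a median above 30000 held 11 of 13 P28 OIR and 8 of 14 P28 control arrays but 3 of 12 P17 control and 0 of 13 P17 OIR arrays. Slides therefore mixed both groups on P12 and P17 and were uneven between P17 and P28. Values with the slide as a block are given where they bear on a result.

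On P17 the OIR retinas had less *Gng13* and less *Vsx1* RNA than the control retinas in the retina channel, and the main ratio fit put both lower without passing the threshold. *Gng13* fell to 0.734 (retina channel) and *Vsx1* to 0.80 of the control level. *Prkca* lay below the control median on 12 of 13 OIR arrays but missed the threshold after adjustment, and *Pcp2*, *Trpm1*, *Cabp5* and *Otx2* had intervals that included 0. Over 12 alternatives to the ratio, the retina channel included, *Prkca* kept its sign in 12 and passed in 8. *Gng13* kept its sign in 10 and passed in 4, and *Vsx1* kept its sign in 10 and passed in 2. In the retina channel 2 of 8 members were called (limma, adjusted p under 0.05 over all probes), both lower, where 3.04% of all probes were called and 1.44% were called lower. In the ratio 0 of 8 members were called, where 1.14% of probes were, and 3 of 8 had an unadjusted p under 0.05. Of the 8 differences, 7 lay below 0 in the retina channel and 6 in the ratio, with medians of -0.20 and -0.29. The medians over all genes were -0.013 and -0.002.

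The retina-channel signal of *Gng13* on P17 had a minimum of 11.15, a median of 11.58 and a maximum of 11.80 in control mice. In OIR mice the minimum was 10.58, the median 11.15 and the maximum 11.34. All 13 OIR arrays lay below the control median and 6 lay below every control array, and the groups overlapped between 11.15 and 11.34. The difference was -0.45 (SE 0.08, 95% interval -0.61 to -0.28, adjusted p = 0.000948). Within the 6 slides that held both groups, each with 2 OIR and 1 or 2 control arrays, *Gng13* was lower in OIR on 6 of 6, by -0.74 to -0.43. In the ratio the difference was the same in size but wider in error, at -0.45 (SE 0.17, interval -0.81 to -0.10, adjusted p = 0.299), and it was 0.014 in the scanner's own ratio and in the authors' table. The group means of the ratio were 4.40 ± 0.54 (SD, n = 12) in control and 3.94 ± 0.32 (SD, n = 13) in OIR mice. With the slide as a block, *Gng13* passed in both measures (ratio -0.52, adjusted p = 0.0023; retina channel -0.55, adjusted p = 0.000157). The 12 alternatives set against the ratio included the retina channel with and without the slide block. Over them adjusted p ran from 0.000157, in the retina channel with the block, to 1.

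*Vsx1* separated the P17 groups further in the retina channel. Control arrays lay between 8.51 and 8.85 with a median of 8.60, and OIR arrays between 8.08 and 8.52 with a median of 8.31. Of the 13 OIR arrays, 12 lay below every control array. The difference was -0.32 (SE 0.05, interval -0.42 to -0.23, adjusted p = 6.63e-05), and it was lower on 6 of 6 slides, by -0.40 to -0.22. In the ratio the difference was -0.41 (SE 0.16, interval -0.75 to -0.07, adjusted p = 0.345), lower on 5 of 6 slides, and it turned to 0.30 in the scanner's ratio and in the authors' table. The slide block kept the retina-channel call (-0.30, adjusted p = 0.00395). Over the same 12 alternatives adjusted p ran from 6.63e-05 to 0.841. Only 2 passed, the retina channel with and without the slide block, so *Vsx1* passed in no version of the ratio.

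For *Prkca*, the rod bipolar marker, control arrays in the retina channel ran from 11.09 over a median of 11.54 to 12.62, and OIR arrays from 10.93 over a median of 11.20 to 11.89. The groups overlapped, with 3 of 13 OIR arrays below every control array. The difference was -0.46 (SE 0.15, interval -0.76 to -0.16, adjusted p = 0.0999), and it was lower on 6 of 6 slides. In the ratio it was -0.42 (SE 0.13, interval -0.69 to -0.16, adjusted p = 0.146), a level of 0.745 of control. The second *Prkca* probe gave -0.27 in the ratio (SE 0.08, adjusted p = 0.129) and -0.31 in the retina channel (SE 0.10, adjusted p = 0.127). Across the same 12 alternatives the difference stayed below 0, from -0.46 to -0.35, and passed in 8, with adjusted p from 0.00198 to 0.176.

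*Isl1* was -0.31 in the retina channel (SE 0.13, interval -0.57 to -0.05, adjusted p = 0.259), with 9 of 13 OIR arrays below every control array. The control group held high arrays, up to 9.47 against a median of 8.37, while the OIR median was 8.15. In the ratio *Isl1* was -0.49 (SE 0.28, adjusted p = 0.564). *Otx2* was -0.09 in the retina channel and -0.10 in the ratio, *Trpm1* -0.012 and -0.18, and *Pcp2* -0.06 and 0.18, all with adjusted p of 0.719 or more. *Cabp5* was 0.34 in the retina channel with an SE of 0.32, so its interval, -0.33 to 1.01, held 0 and values of either sign. The second, dimmer *Cabp5* probe leaned the other way on P17, with 11 of 13 OIR arrays below the control median in both measures. Within slides it was lower in OIR on 6 of 6, by -0.26 to -0.030 in the ratio and by -0.48 to -0.014 in the retina channel.

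**Figure D1:**
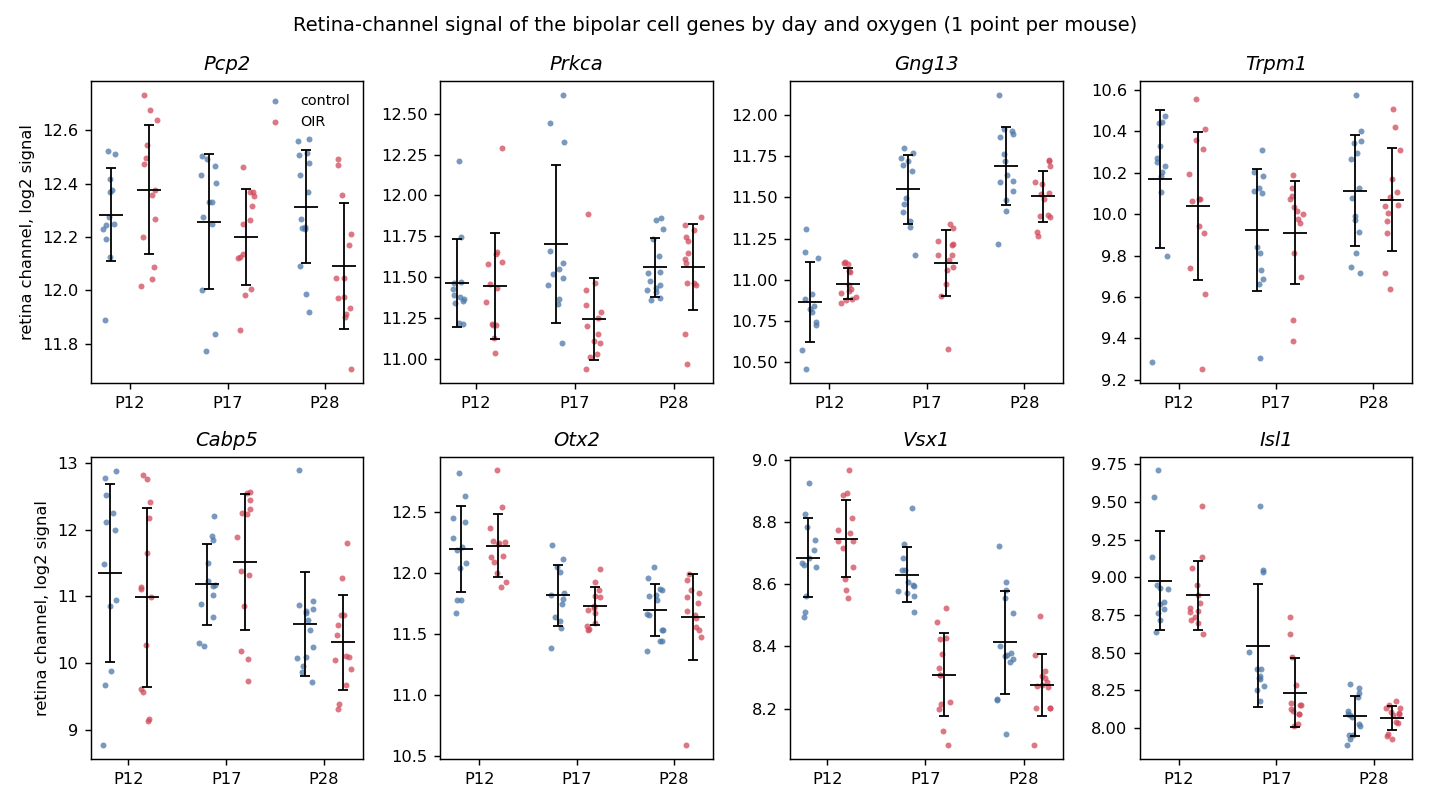
Log2 signal of the retina channel (y axis) of the 8 genes by day, 1 point per mouse, with control mice in blue and OIR mice in red, and bars for the mean ± SD. On P17, 12 of 13 OIR points of *Vsx1* and 6 of 13 of *Gng13* lie below every control point.

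**Figure D2:**
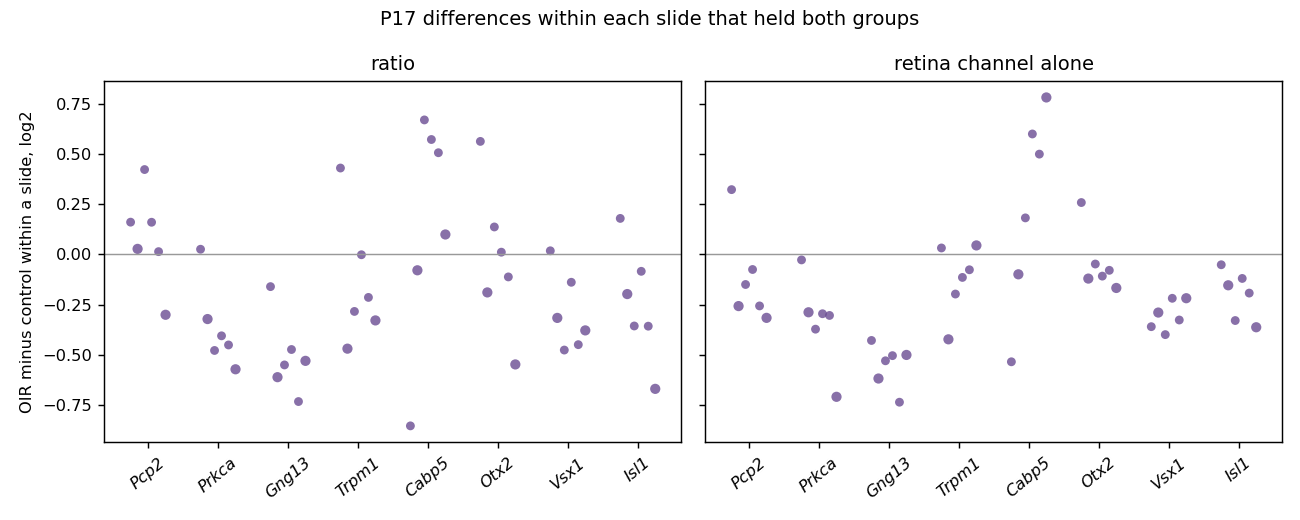
OIR minus control on P17 within each of the 6 slides that held both groups (y axis, log2), for the ratio (left) and the retina channel (right), 1 point per slide, drawn larger where the slide held more arrays. In the retina channel *Gng13*, *Vsx1*, *Prkca* and *Isl1* lie below 0 on 6 of 6 slides.

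The reference RNA was the same on all arrays and served as a check on the measurement. In the reference channel on P17 *Gng13* differed by -0.10, *Vsx1* by -0.06 and *Prkca* by -0.01. None of the 8 members was called there in limma, where 0.0018% of probes were, and 0 of 8 had an unadjusted p under 0.05. The reference channel was nevertheless lower in OIR on 6 of 6 slides for *Gng13* (-0.17 to -0.041) and for *Vsx1* (-0.080 to -0.0044), and 6 of 13 OIR arrays of *Vsx1* lay below every control array there, while *Prkca* was lower on 3 of 6. The part of these shifts in the retina-channel differences was not tested. Another scaling of the retina channel, to the 75th percentile of each array, kept all 3 differences below 0 (*Gng13* -0.60 with SE 0.21, *Vsx1* -0.41 with SE 0.18, *Prkca* -0.56 with SE 0.34) but none passed (adjusted p = 0.845 for each). With that scaling 125 probes were called on P17 against 1691, and the median of all probes moved by 0.10.

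On P12, at the end of the oxygen exposure, no member was called in either measure. The background was 0.0216% of probes in the ratio and 0.0718% in the retina channel, and 0 of 8 members had an unadjusted p under 0.05 in either. Ratio differences ran from -0.38 (*Trpm1*, interval -0.78 to 0.03) to -0.02 (*Pcp2*), all 8 below 0. Retina-channel differences ran from -0.36 (*Cabp5*, SE 0.51) to 0.11 (*Gng13*), with 4 of 8 below 0. *Gng13* and *Vsx1*, the genes lower on P17, overlapped on P12, at 10.86 ± 0.24 (SD, n = 12) in control and 10.98 ± 0.09 (SD, n = 13) in OIR mice for *Gng13* and 8.69 ± 0.13 and 8.75 ± 0.12 for *Vsx1*. For *Gng13* all 13 OIR arrays lay above the control median of 10.83, and 0 lay above every control array. Within the 7 slides that held both P12 groups, *Gng13* was lower in OIR on 2.

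On P28 no member was called either, where 0.0611% of probes were in the ratio and 0.286% in the retina channel. In the ratio 1 of 8 members had an unadjusted p under 0.05, and in the retina channel 3 did. These were *Gng13* at -0.38 in the ratio (SE 0.16, adjusted p = 0.641) and, in the retina channel, *Pcp2* at -0.22 (SE 0.08, adjusted p = 0.444), *Gng13* at -0.19 (SE 0.08, adjusted p = 0.494) and *Vsx1* at -0.14 (SE 0.05, adjusted p = 0.447). Only 3 slides held both P28 groups. Within them the *Gng13* ratio differed by -0.058 to 0.017, lower in OIR on 1 of 3. In the retina channel *Gng13* differed by -0.19 to 0.0008 (lower on 2 of 3) and *Vsx1* by -0.079 to 0.0099 (2 of 3). *Pcp2* differed there by -0.30 to -0.096 (3 of 3). *Prkca*, at -0.46 on P17, had a retina-channel interval of -0.17 to 0.17 on P28.

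**Figure D3:**
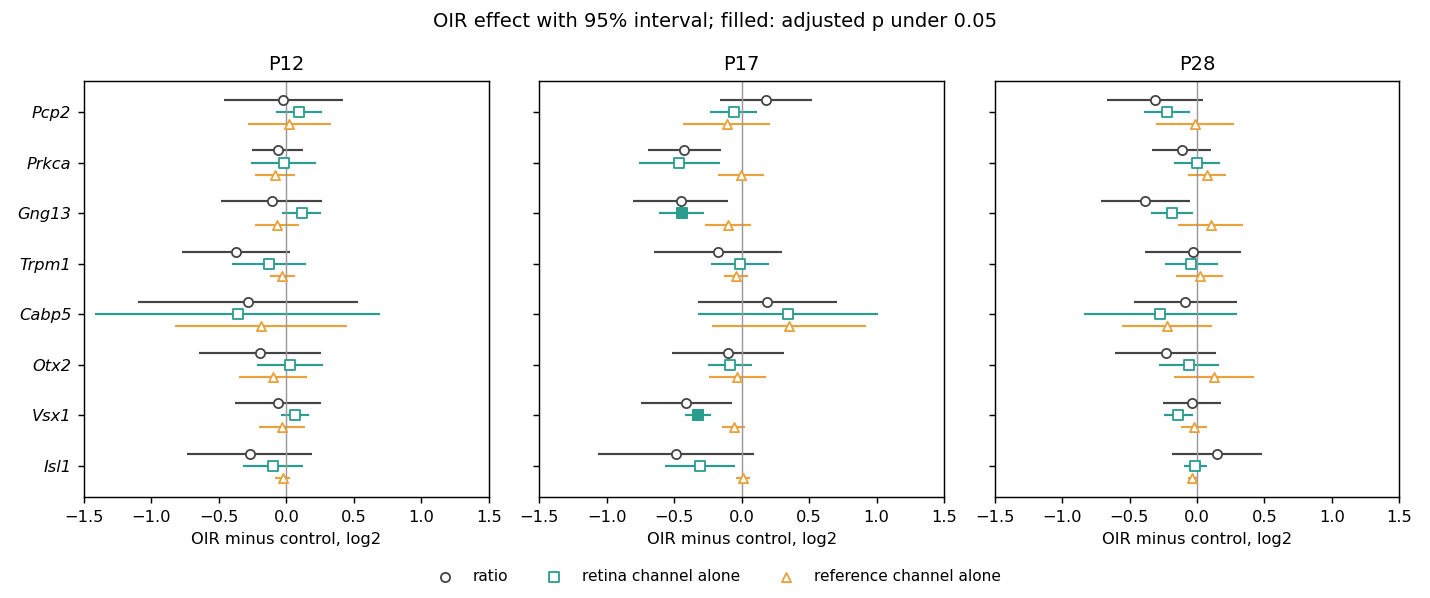
OIR minus control (x axis, log2) with the 95% interval for each gene on P12, P17 and P28, in the ratio (circles), the retina channel (squares) and the reference channel (triangles), with filled symbols for adjusted p under 0.05. The only filled symbols are the P17 retina-channel values of *Gng13* (-0.45) and *Vsx1* (-0.32).

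Whether the OIR difference itself changed between days was tested in the fit over all 6 groups. From P12 to P17 it moved by -0.56 for *Gng13* (SE 0.11, adjusted p = 0.000456) and by -0.38 for *Vsx1* (SE 0.07, adjusted p = 0.000167) in the retina channel. These were 2 of 8 members called, where 1.75% of probes were. In the ratio 0 of 8 were called, where 0.487% of probes were, and 1 of 8 had an unadjusted p under 0.05. *Prkca* moved by -0.44 in the retina channel with an adjusted p of 0.265. With the slide as a block the retina-channel shifts were -0.62 (adjusted p = 1.51e-06) and -0.42 (adjusted p = 1.99e-05), and with scaling to the 75th percentile they were -0.55 and -0.34, neither called. From P17 to P28, 0 of 8 members were called in the ratio (0.278% of probes) or the retina channel (1.02%), and 1 of 8, *Gng13*, passed in the retina channel with the slide as a block (0.40, adjusted p = 0.0174) or the scan day as a block (0.41, adjusted p = 0.0121). Without a block the retina-channel shifts were 0.46 for *Prkca* (adjusted p = 0.229), 0.26 for *Gng13* (adjusted p = 0.316) and 0.18 for *Vsx1* (adjusted p = 0.262), and 4 of 8 members had an unadjusted p under 0.05 there, against 0 of 8 in the ratio. From P12 to P28 no member was called in the ratio (0.0395% of probes) or the retina channel (0.142%), with 0 and 3 of 8 at an unadjusted p under 0.05.

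With age, *Gng13* rose in the control retina between P12 and P17 while *Isl1* and *Otx2* fell. In the retina channel *Gng13* changed by 0.68 (SE 0.08, adjusted p = 8.78e-10), a 1.61-fold rise. *Isl1* fell by 0.43 (SE 0.10, adjusted p = 0.00454) and *Otx2* by 0.38 (SE 0.11, adjusted p = 0.0317). These were 3 of 8 members, where 3.12% of probes were called. In the ratio 0 of 8 were called, where 1.28% of probes were, with 2 of 8 at an unadjusted p under 0.05, and 2 were called with the slide as a block (*Gng13* 0.72, adjusted p = 5.45e-05, and *Isl1* -0.42, adjusted p = 0.0287). In the OIR retina over the same days *Vsx1* fell by 0.44 (SE 0.05, adjusted p = 6.71e-11), *Isl1* by 0.65 (SE 0.10, adjusted p = 4.57e-07) and *Otx2* by 0.49 (SE 0.10, adjusted p = 0.000352), which were 3 of 8 members where 8.29% of probes were called. *Gng13* changed there by 0.13 (adjusted p = 0.423), and in control mice *Vsx1* changed by -0.05 (adjusted p = 0.808). In the ratio 0 of 8 were called in OIR mice, where 3.42% of probes were, with 3 of 8 at an unadjusted p under 0.05, and 3 were called with the block (*Vsx1* -0.42, *Isl1* -0.67 and *Otx2* -0.56). With each array scaled to its 75th percentile the retina-channel changes kept their signs and none passed, at 0.63 for *Gng13*, -0.39 for *Isl1* and -0.47 for *Otx2* in control mice (adjusted p of 0.466 or more) and -0.41 for *Vsx1*, -0.58 for *Isl1* and -0.55 for *Otx2* in OIR mice (adjusted p of 0.564 or more).

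*Gng13* thus followed different courses in the retina channel. Its P12, P17 and P28 means were 10.86, 11.55 and 11.69 in control mice and 10.98, 11.10 and 11.51 in OIR mice. *Vsx1* stood at 8.69, 8.63 and 8.41 in control mice and at 8.75, 8.31 and 8.28 in OIR mice, so that the OIR mean on P17 lay under the control mean on P28. The *Isl1* means went down in both groups in the retina channel. They went from 8.98 over 8.55 to 8.08 in control and from 8.88 over 8.23 to 8.07 in OIR mice. The last step in OIR mice, P17 to P28, was -0.17 there (SE 0.10, limma adjusted p = 0.179). In the ratio the same step was a rise of 0.47 (SE 0.23, limma adjusted p = 0.0956). Neither was called, and the sign of this step depended on the measure. *Otx2* in the retina channel went from 12.19 over 11.81 to 11.70 in control mice. In OIR mice it went from 12.22 over 11.73 to 11.64, and its lowest array, at 10.59, was a P28 OIR array. *Pcp2* stayed between retina-channel group means of 12.09 and 12.38, and *Trpm1* between 9.91 and 10.17.

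Between P17 and P28 the slides were uneven, so values with the slide as a block stand beside the calls. In control mice *Vsx1* fell by 0.22 (adjusted p = 0.00114, with the block -0.20 and 0.00334, but 0.17 with each array scaled to its 75th percentile) and *Isl1* by 0.47 (adjusted p = 0.000456, with the block -0.44 and 8.08e-06) in the retina channel. These were 2 of 8 members, where 15% of probes were called. In the ratio 0 of 8 were called, where 13.4% of probes were, with 2 of 8 at an unadjusted p under 0.05. In OIR mice *Gng13* rose by 0.40 (adjusted p = 2.12e-05, with the block 0.53 and 1.67e-06), *Prkca* rose by 0.32 (adjusted p = 0.0272, with the block 0.24 and 0.134) and *Cabp5* fell by 1.21 (adjusted p = 0.00996, with the block -0.59 and 0.441), 3 of 8 where 38% of probes were called. In the ratio 3 of 8 were called in OIR mice, where 40.6% of probes were. *Pcp2* was at -0.92 (adjusted p = 4.78e-05, with the block -0.42 and 0.0331), *Cabp5* at -1.005 (adjusted p = 0.00336, with the block -0.56 and 0.311) and *Vsx1* at 0.34 (adjusted p = 0.0499, with the block 0.15 and 0.429). The reference channel of *Pcp2* rose by 0.60 over the same days (adjusted p = 0.0073, with the block 0.30 and 0.230, where 6.35% of probes were called in that channel) and its retina channel was not called, and the part of the reference in these ratio changes was not tested.

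The probes of *Cabp5* and *Trpm1* did not move together. The brighter *Cabp5* probe spread widely within groups, from 8.78 to 12.88 among P12 control mice in the retina channel (SD 1.33), while the second probe rose from P17 to P28 by 0.49 in control mice (adjusted p = 0.0011, with the block 0.37 and 0.00412) and by 0.66 in OIR mice (adjusted p = 2.64e-06, with the block 0.33 and 0.0439). That second probe lay near background in the retina channel. It was well above background on 9 of 12 control and 7 of 13 OIR arrays on P17. On P28 the numbers were 14 of 14 and 12 of 13. On P28 the OIR differences of the 3 *Trpm1* probes in the retina channel were -0.04, -0.38 and 0.58, none called (adjusted p of 0.259 or more). From P17 to P28 in OIR mice these probes changed by 0.16, -1.11 and 0.31, of which the second was called (adjusted p = 0.00125, with the block -0.66 and 0.0145). The third *Trpm1* probe was well above background in the retina channel on 10 of 13 P17 OIR and 12 of 13 P28 OIR arrays. A level of *Cabp5* or *Trpm1* therefore depended on the probe read. Both *Prkca* probes lay below control on P17.

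Other genes of bipolar cells were read from 3 lists, each with a probe for every gene. Of 13 genes of the ON bipolar cascade on P17, 2 rose in OIR retinas in the retina channel, where 1.59% of probes did, and 0 fell. *Gnb3*, the beta subunit of the ON bipolar G protein, which cones also use, rose by 0.70 (SE 0.15, adjusted p = 0.005), and *Rgs11*, which speeds the shut-off of Go, rose by 0.61 (SE 0.13, adjusted p = 0.0046). In the ratio *Rgs11* was at 0.57 (adjusted p = 0.034), and the largest value of the list was *Rgs9bp* at -0.63 (adjusted p = 0.41). *Gng13*, the partner of *Gnb3* in the same G protein, lay below control in the same retinas. The list's median was -0.19.

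Of 13 transcription factors of bipolar cells, 5 fell on P17 in the retina channel and 0 rose, with a median of -0.27, where 1.44% of probes were called lower. Among them were *Lhx3* (-0.48, adjusted p = 6.3e-05), *Prdm8* (-0.36, adjusted p = 0.013), *Irx6* (-0.35, adjusted p = 0.0056) and *Sebox* (-0.33, adjusted p = 0.01). *Lhx3* and *Irx6* mark types of OFF cone bipolar cells. Of 20 genes that mark bipolar subtypes, 5 fell and 0 rose, against the same 1.44%, with a median of -0.11. Of these 20, 4 in control and 3 in OIR mice were well above background on no P17 array, and they stand in the count and the median. The 5 subtype genes that fell were *Slitrk5* (-0.54, adjusted p = 0.00035), *Lrtm1* (-0.45, adjusted p = 0.0021), *Tacr3* (-0.44, adjusted p = 0.0032), *Ebf1* (-0.43, adjusted p = 0.0022) and *Grik1* (-0.38, adjusted p = 0.041). *Tacr3* encodes the neurokinin B receptor and *Grik1* the kainate receptor through which OFF cone bipolar cells read glutamate. In the ratio *Ebf1* was called (-0.28, adjusted p = 6.3e-05), and of the transcription factors 0 of 13 were, with 8 of 13 at an unadjusted p under 0.05 (largest *Lhx3*, -0.61, adjusted p = 0.2).

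**Figure D4:**
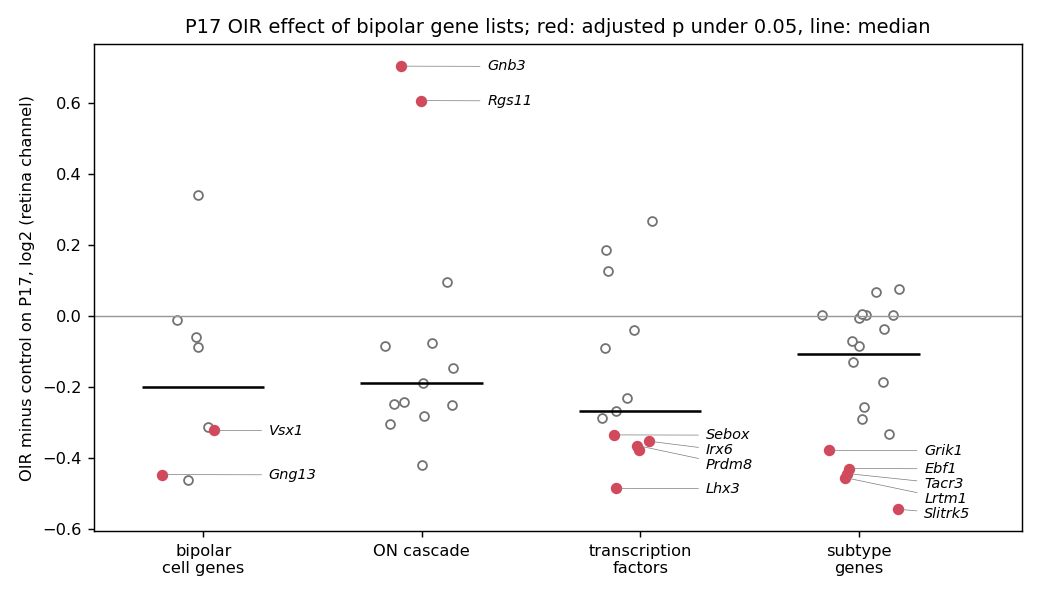
OIR minus control on P17 in the retina channel (y axis, log2) for the members and 3 lists of bipolar genes, 1 point per gene, red where the adjusted p was under 0.05 (labelled where named in the text), with a line at the list's median. The called members, transcription factors and subtype genes lie below 0, and the called cascade genes *Gnb3* and *Rgs11* lie above it.

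On P12 and P28 no gene of these 3 lists was called by limma in either measure. At an unadjusted p under 0.05 the retina channel gave 1 of 13 cascade genes, 0 of 13 transcription factors and 1 of 20 subtype genes on P12, and 2 of each list on P28, and the ratio gave 2, 0 and 0 on P12 and 1, 1 and 2 on P28. The largest retina-channel differences were *Grm6* at -0.31, *Six3* at 0.24 and *Nnat* at 0.29 on P12, and *Gpr179* at -0.28, *Six3* at -0.31 and *Nnat* at -0.23 on P28. In the ratio they included *Grm6* at -0.59, *Prdm8* at -0.29 and *Pcdh17* at -0.23 on P12, and *Gpr179* at -0.35 and *Prdm8* at 0.30 on P28. The OIR difference moved from P12 to P17 by 0.89 for *Rgs11* (adjusted p = 0.00048), -0.52 for *Lhx3* (adjusted p = 0.0007), -0.47 for *Irx6* (adjusted p = 0.0027), -0.46 for *Lrtm1* (adjusted p = 0.039) and -0.42 for *Ebf1* (adjusted p = 0.034) in the retina channel. Over all probes 1.75% were called for this change in that channel. The number called per list and the ratio values of these genes for this change are not reported here.

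In the control retina from P12 to P17, some cascade genes rose beside *Gng13* in the retina channel: *Rgs9bp* by 0.85, *Lrit2* by 0.54, *Gnb5* by 0.44 and *Nyx* by 0.29. Of the transcription factors, *Lhx4* fell by 0.73, *Prdm1* by 0.46 and *Lhx3* by 0.32, beside *Isl1* and *Otx2*, and *Sebox* rose by 0.50. Of the subtype genes *Lrtm1* rose by 0.79 and *Tacr3* by 0.37, while *Nnat* fell by 1.25 and *Pcdh10* by 0.29. All of these passed the adjusted threshold, where 3.12% of probes were called in either direction. With each array scaled to its 75th percentile 147 probes were called, and these 3 lists were not read under that scaling.

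Markers of other retinal cells moved on P17 as well, in the retina channel. Müller glia had 3 of 8 markers lower, amacrine cells 3 of 9, ganglion cells 4 of 9 and pigment epithelium 3 of 10, while endothelial cells had 4 of 8 higher, where 1.44% of probes were called lower and 1.59% higher. Rods had 0 of 9 called (2 at an unadjusted p under 0.05), with 9 of 9 below 0 and a median of -0.26, cones had 0 of 8 (0 unadjusted) and horizontal cells 0 of 6 (2 unadjusted), lens had 1 of 8 lower, and the synapse genes of bipolar input and output 1 of 12, *Pclo*, lower. The summed signal of the Müller markers ran from 18632 to 23392 in control and from 11884 to 20943 in OIR mice, that of the amacrine markers from 6866 to 10313 and from 5070 to 8346, and that of the ganglion markers from 7290 to 14853 and from 6177 to 10979. The pigment epithelium sum ran from 1436 to 2925 and from 1190 to 3463, the rod sum from 75818 to 180732 and from 69420 to 129184, and the endothelial sum from 2012 to 4101 and from 3365 to 6028. The sum of the 8 members ran from 15295 to 22026 in control and from 14670 to 22838 in OIR mice. Pigment epithelium, endothelial, horizontal and synapse lists each had 1 gene well above background on no array of either P17 group, the lens list had 1 in control and 2 in OIR mice, and the rod, cone, amacrine, ganglion and Müller lists had 0. Their part in the lower *Gng13* and *Vsx1* was not tested.

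Within groups the members' ratios varied more than those of most probes, which did not hold for each member in the retina channel. In the ratio the members' residual SD ran from 0.237 to 1.02 (P12), from 0.335 to 0.723 (P17) and from 0.280 to 0.496 (P28), against medians over all probes of 0.0765, 0.0794 and 0.0887. The retina-channel SDs ran from 0.125 to 1.34, from 0.115 to 0.847 and from 0.110 to 0.749 on the same days, against medians of 0.170, 0.170 and 0.115. These medians take in all 55681 probes, of which an array had 13765 to 34306 clear of background in Cy3. The members were clear of it on all arrays, and the part of brightness in the contrast was not tested. *Cabp5* had the largest retina-channel SD of the members in each of the 6 groups. As a description over the 77 arrays, which share slides, deviations from the group means were positively correlated in 22 of 28 pairs of members in the ratio (median r 0.47) and in 15 of 28 in the retina channel (median r 0.071).

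Genes whose deviations followed a member most closely were sought among 7603 genes well above background on all arrays, as a description over the same 77 arrays. In the ratio the nearest to *Pcp2* were *Atp1b2* (r 0.968), *Mapre3* and *Psd* (0.953 each), and the nearest to *Prkca* were *Agap1* (0.876), *Pla2g5* (0.864) and *Kif1b* (0.863). *Gng13* was nearest to *Faim2* (0.919) and *Dlgap3* (0.905), and *Vsx1* to *Gria4* (0.923), *Ppp1r9a* (0.921) and *Ikzf4* (0.912). *Trpm1* was nearest to *Susd4* (0.922), *Dscaml1* (0.911) and *Grm6* (0.908), the last encoding mGluR6. Close to *Cabp5* were *Lzts3* (0.978) and *Shc4* (0.969), while *Isl1* was nearest to *Flrt3* (0.972) and *Kcnn2* (0.970), and *Otx2* to *Wnk2* and *Syt1* (0.900 each). In the retina channel the nearest genes were others for all members but *Cabp5*, with r from 0.511 (*Vsx1* with *Insyn2a*) to 0.992 (*Cabp5* with *Lzts3*).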

How the data were processed

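Retinal RNA of 77 mice was hybridised to 2-colour Agilent SurePrint G3 Mouse 8x60K arrays, 1 mouse per array, and per the file headers spots were extracted with Feature Extraction 10.7.3.1 (header build mm9). The deposited scanner files held intensity values of each spot and its local background in both channels, and a log10 ratio of the processed channels made by the authors' scanner software. The authors' value table held a log2 ratio, and 99.6624% or more of its probes per array equalled log2 of processed Cy3 over Cy5 within 0.001 (column medians -0.13 to 0.01), with its GeneSpring settings not given in the sources used here. The table served as an alternative only.

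Here, median signals were background-corrected by normexp (offset 50) in limma 3.58.1 (R 4.3.3), normalised by loess within each array with control spots at weight 0, and outlier-marked spots (0.592 to 0.951% of 62976 spots) were left out. Spots of a probe were averaged, giving 55681 probes, of which 28026 had a symbol through their RefSeq accession. For the retina channel alone, corrected Cy3 was quantile-normalised between arrays, and Cy5 was treated likewise for the reference. No filter on brightness was set, and the number of arrays limits the precision. OIR was compared with control on each day with limma's moderated test on that day's arrays, and age changes and changes of the OIR effect in a fit over all 6 groups, with Benjamini-Hochberg adjustment over all probes at 0.05. Intervals are at 95%. On simulated data 189, 192 and 194 of 200 probes changed by a log2 of 1 were recovered for P12, P17 and P28, with 3, 8 and 14 false calls. Those probes were drawn from all probes, with noise independent between arrays and no slide or litter effect. The members' ratios spread more than the median probe and their OIR differences were smaller than 1. The simulation therefore does not tell how often differences like theirs would be called.

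All members were named. Other lists were given by counts, with values for called genes of 3 bipolar lists and their largest value per day, and the 3 genes most like each member were sought, and some of these genes are not reported here. The members and lists were chosen with earlier results of these data known. Alternatives changed the background correction, offset, filter, probe summary, weights, spread estimate, slide block, channel and source of the ratio.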

Additional observations from a re-analysis of the deposited data

Results flagged for a closer look

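The change of the OIR difference from P12 to P17 in the retina channel alone was singled out for 2 members because the difference between days was itself tested and passed. For *Gng13* it was -0.56 (SE 0.11, limma adjusted p = 0.000456), from 0.11 on P12 to -0.45 on P17. For *Vsx1* it was -0.38 (SE 0.07, limma adjusted p = 0.000167), with -0.32 on P17. Neither passed in the ratio, and neither passed with each array scaled to its 75th percentile, where adjusted p rounded to 1. No group was small enough for a test of single outlying arrays.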

How the results depend on the processing

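Counts of called members (of 8) moved as follows, and the share of all probes called under each setting is not given beside them. In the main ratio fit 13.4% of probes were called from P17 to P28 in control mice and 40.6% in OIR mice. The counts below are therefore not read as a trait of the bipolar genes. For the P17 difference in the ratio, 0 became 1 without background correction, with offset 0, in the scanner's ratio, in the authors' table, with the mean over probes and in the fit over all groups, and 2 with the slide block, with array weights, in the retina channel and in the retina channel with the slide block. For P12 to P17 in control mice, 0 became 1 with offset 0, the scanner's ratio, the authors' table and array weights, 2 with the slide block and 3 in the retina channel with or without the block. For P17 to P28 in control mice, 0 became 3 without background correction, 4 with offset 0, 8 in the scanner's ratio and the authors' table, and 2 with the slide block, array weights and the retina channel with or without the block. For P12 to P17 in OIR mice, 0 became 1 without background correction, with offset 0, in the scanner's ratio and in the authors' table, 3 with the slide block and in the retina channel, 2 with array weights and 5 in the retina channel with the block. For P17 to P28 in OIR mice, 3 became 6 with offset 0, the scanner's ratio, the authors' table and array weights, and 1 with the slide block. For the change of the OIR difference from P12 to P17, 0 became 1 with offset 0, the scanner's ratio, the authors' table and the slide block, 2 in the retina channel and 3 there with the block. From P17 to P28, 0 became 1 in the retina channel with the block.

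Signs turned for the P17 difference of *Otx2* without background correction (0.023), with offset 0 (0.29) and in the scanner's ratio and the authors' table (0.47 in each), of *Trpm1* with offset 0 (0.37) and in the scanner's ratio and table (0.44), of *Gng13* (0.014) and *Vsx1* (0.30) in the scanner's ratio and table, and of *Pcp2* in the retina channel (-0.057, with the block -0.15). On P28 *Vsx1* turned with the slide block (0.079) and array weights (0.031), and *Cabp5* with the mean over probes (0.029). From P17 to P28 in control mice, array weights turned *Vsx1* (0.090) and *Isl1* (0.21). From P12 to P17 in OIR mice, the scanner's ratio and table turned *Vsx1* (0.35) and *Otx2* (0.037). From P17 to P28 in OIR mice, *Gng13* turned without background correction (-0.36), with offset 0 (-1.22) and in the scanner's ratio and table (-1.60), *Vsx1* with offset 0 (-0.80), in the scanner's ratio and table (-1.60) and in the retina channel (-0.033), and *Prkca* with offset 0 (-0.039) and in the scanner's ratio and table (-0.11). The change of the *Vsx1* difference from P12 to P17 turned to 0.43 in the scanner's ratio and table.

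Alternatives of the retina and reference channels were chosen after seeing the data. Scaling to the 75th percentile took the called members from 2 to 0 for the P17 difference, from 3 to 0 for P12 to P17 in control and in OIR mice, from 3 to 6 for P17 to P28 in OIR mice and from 2 to 0 for the change from P12 to P17. With that scaling 125, 147, 634, 51357 and 99 of the 55681 probes were called in these comparisons, in the same order. The 6 members called for P17 to P28 in OIR mice thus stood among 51357 called probes. The scaling turned *Vsx1* from P17 to P28 in control mice (0.17), and *Pcp2* (0.61) and *Vsx1* (0.55) in OIR mice. Under it the median of all probes moved by 0.18, 0.10 and -0.32 on P12, P17 and P28, and by -0.89 and -1.33 from P17 to P28 in control and OIR mice. The slide block took P12 to P17 in OIR mice from 3 to 5 and the change from P17 to P28 from 0 to 1, and turned *Vsx1* from P17 to P28 in OIR mice (0.049). The scan day as a block took the latter change from 0 to 1 and turned *Pcp2* from P17 to P28 in OIR mice (0.015). The causes were not tested. Of 333 values of single members under the ratio's alternatives, the retina channel included, 231 kept sign and side of the threshold. Of the others, 58 newly passed, 9 no longer passed and 35 turned. No paired analysis was possible because the groups shared no replicate numbers. The ratio of *Trpm1*, *Vsx1*, *Isl1* and *Otx2* was limited by a reference signal close to background. The reference signal of *Gng13* was also low, though well above background on most P17 arrays.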
